A study of Mus musculus with 14 samples.

Results

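Transcripts of 10 genes of cytokine reception were followed through isolated mouse colon epithelium: the receptor subunits Il4ra, Il13ra1, Il22ra1, Il10rb, Il17rc, Il6st, Osmr and Ifngr1, the transcription factor Stat3 and its feedback inhibitor Socs3. They were chosen by symbol, with no measured value in the rule, and all 10 were found among the 37680 genes of the count table and passed the filter on low counts in every comparison. RNA sequencing covered 14 libraries of epithelium from the whole colon of adult mice on an enriched C57/BL6 background. There were 4 wild-type (WT) and 4 Smad4 knockout (KO) libraries on plain water, and 3 WT and 3 KO libraries after 3 d of 2.5% dextran sulfate sodium (DSS), a polymer that injures the colonic epithelium when it is drunk. The knockout joined floxed Smad4 alleles to a Cre recombinase under the Villin promoter that tamoxifen switches on, so that deletion was aimed at intestinal epithelial cells only. The labels of the WT mice give no alleles, and no label says that 2 libraries of a group came from separate animals, so the p-values measure the spread between these libraries, part of which may be technical.

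Cytokine receptors work as pairs of chains, and most chains are shared. Il4ra pairs with Il13ra1 to receive interleukin-4 and interleukin-13, Il22ra1 pairs with Il10rb to receive interleukin-22, Il17rc pairs with Il17ra to receive interleukin-17A and 17F, Osmr pairs with Il6st (gp130) to receive oncostatin M, and Ifngr1 pairs with Ifngr2 to receive interferon gamma. All but the interleukin-17 receptor signal through Janus kinases (JAKs) and STAT proteins. Interleukin-22 and the gp130 cytokines mainly activate STAT3, which in the gut epithelium is known for wound repair and antimicrobial defence, and STAT3 induces Socs3, which binds gp130 and the JAKs and shuts the signal off.

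Promoter windows of 250 bases before the first base of the outermost protein-coding transcript were read from the mm9 genome with GENCODE M1 annotation, and 3 are printed here: that of Socs3, which held a match to the STAT letters, that of Stat3, the factor that binds such letters, and that of Il17rc, the gene called after DSS. The letters TTCNNNGAA, the palindrome that STAT dimers recognize, were searched on both strands, and occur in 1525 of 22367 such windows (6.82%). Among the 10 genes the Socs3 window alone held a match, TTCCAGGAA, shown in capitals, which begins 61 bases before the transcript start; its distal end overlaps an exon of a noncoding Socs3 transcript. The Stat3 and Il17rc windows held none of these letters. A match of letters is a description of sequence and not a measured binding site.
Socs3, chr11:117830501-117830750, minus strand: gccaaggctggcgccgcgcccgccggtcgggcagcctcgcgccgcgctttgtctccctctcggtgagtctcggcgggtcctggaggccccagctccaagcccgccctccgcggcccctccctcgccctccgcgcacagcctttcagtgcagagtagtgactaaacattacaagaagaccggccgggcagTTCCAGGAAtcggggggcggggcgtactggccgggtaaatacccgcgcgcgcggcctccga
Stat3, chr11:100800855-100801104, minus strand: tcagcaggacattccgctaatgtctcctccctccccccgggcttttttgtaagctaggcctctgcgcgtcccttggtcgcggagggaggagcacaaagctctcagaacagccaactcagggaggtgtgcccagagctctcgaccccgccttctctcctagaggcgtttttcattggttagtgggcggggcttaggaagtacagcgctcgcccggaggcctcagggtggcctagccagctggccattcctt
Il17rc, chr6:113421171-113421420, plus strand: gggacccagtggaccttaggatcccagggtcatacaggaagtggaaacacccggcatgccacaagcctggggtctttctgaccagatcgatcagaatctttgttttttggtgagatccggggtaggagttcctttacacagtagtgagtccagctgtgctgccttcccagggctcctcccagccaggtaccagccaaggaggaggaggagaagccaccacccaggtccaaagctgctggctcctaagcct
The letters CAGACA, a core of the sequences that SMAD proteins bind, searched on both strands, were present in the windows of Il22ra1 and Il6st and in none of the other 8 genes, against 3432 of 22367 windows (15.3%).

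Total counts ran from 12882827 to 26087231 per library. Smad4 was at 2434, 3188, 2694 and 2372 normalized counts in the WT water libraries and at 3407, 3650 and 3493 after DSS. In the KO it was at 878, 808 and 856 after DSS and at 741, 936 and 702 in water replicates 2 to 4, but at 3164 in the library labelled KO water replicate 1, which is at the WT level, so several of the values on KO water are also given without that library. Mitochondrial genes took 21.4% to 32.8% of the counts in 3 libraries (WT water replicates 3 and 4, KO water replicate 4) and 4.05% to 8.23% in the other 11. Sample names carry prefixes whose meaning is not given, and the KO water and KO DSS libraries share none, so the prefix and DSS cannot be told apart in KO. The 12 epithelial markers were all detected and summed to 344331 to 551573 normalized counts per library, against 1284 to 3054 for 18 immune cell markers.

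Per kb of exon, the only scale on which levels are compared between genes, Il17rc and Ifngr1 were the most abundant of the 10 in WT on water, at 2064 ± 470 and 1447 ± 161 normalized counts per kb (SD, n = 4), and their libraries overlapped. Il13ra1 (403 ± 104), Socs3 (383 ± 106), Stat3 (269 ± 42.4) and Il10rb (243 ± 14.2) followed, each overlapping the next. Il4ra was at 168 ± 27.8, below Il10rb in every library, Il22ra1 at 74.4 ± 26.9 and Il6st at 50.4 ± 11.5 overlapped, and Osmr came last at 15.9 ± 7.42. In KO after DSS the order was different at the top: Ifngr1 led at 1685 ± 173 (SD, n = 3), Socs3 was at 1011 ± 187 and Il17rc at 975 ± 30.1, and the last 2 overlapped. The bottom of the order, Il22ra1 before Il6st before Osmr, was the same in all 4 groups. By mean, Il17rc and Ifngr1 were the most abundant receptor transcripts among the 10 genes in every group. Il6st and Osmr were the scarcest among them, with 109 to 757 and 41 to 270 raw counts per library. Partner chains outside the 10 genes are not part of this order.

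**Figure D1:**
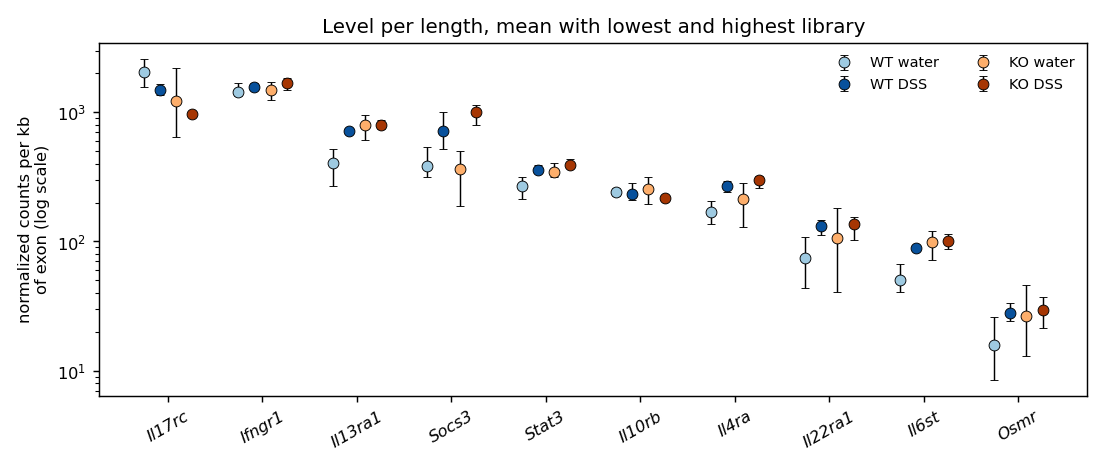
Level of each of the 10 genes per kb of exon (log axis) in the 4 groups. Points are group means (n = 4 libraries on water, n = 3 after DSS) and bars run from the lowest to the highest library. Il17rc is at 2064 normalized counts per kb in WT on water and at 975 in KO after DSS, and Socs3 at 383 and 1011.

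KO was first compared with WT after DSS, which asks what loss of Smad4 changes in the injured epithelium. Il17rc, the chain that completes the interleukin-17A and 17F receptor, fell. Its level was 3652, 4424 and 3950 normalized counts in the WT DSS libraries and 2553, 2564 and 2697 in the KO DSS libraries. Every KO library was below every WT library, and the KO libraries had an SD of 80.4. The log2 fold change was -0.62 ± 0.10 (SE), or 0.651-fold, with an adjusted p of 0.0325 in edgeR's quasi-likelihood test and of 8.42e-06 in DESeq2. It was the single one of the 10 genes called, against 0.801% of the 14241 genes tested by edgeR and 2.10% called lower by DESeq2, and the single one whose groups did not overlap downwards, against 11.7% of genes. Of the 12 epithelial markers, 11 had a log2 fold change below 0 in the same contrast and 4 were lower at an unadjusted p under 0.05 (8.43% of all genes). EdgeR called 1 of them lower (0.442% of all genes) and DESeq2 2 (2.10%). The 1 is Krt20, a keratin of differentiated colonocytes named after its values were seen, at 14445, 12373 and 16135 in WT and 8687, 8338 and 6722 in KO (-0.85 ± 0.14, adjusted p = 0.0324 in edgeR). The summed epithelial markers overlapped, at 479614 to 497701 in WT and 434640 to 484705 in KO, and the part of the marker shift in the Il17rc value was not tested. In bulk RNA, fewer cells with a transcript and less RNA per cell cannot be told apart. The call was lost when WT DSS replicate 2 or 3 or any 1 of the 3 KO libraries was left out, where the log2 fold change lay between -0.64 and -0.54 and the adjusted p rose to 0.0793 to 0.131. It was also lost with the spread of all 14 libraries in 1 model (-0.62 ± 0.33, adjusted p = 0.999).

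Socs3, the feedback inhibitor, had the next largest difference after DSS but was not called. Its level was 1791, 2917 and 1495 in WT and 3197, 3273 and 2301 in KO, so 1 WT library was inside the KO range, and the log2 fold change was 0.50 ± 0.23 (adjusted p = 0.334 in edgeR). The other 8 genes differed by -0.11 (Il10rb) to 0.20 (Il6st), with overlapping groups and standard errors from 0.10 to 0.24. Stat3 itself was at 3250, 3743 and 3315 in WT and at 3513, 4166 and 3571 in KO after DSS, a log2 fold change of 0.13 ± 0.11 that was not called.

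**Figure D2:**
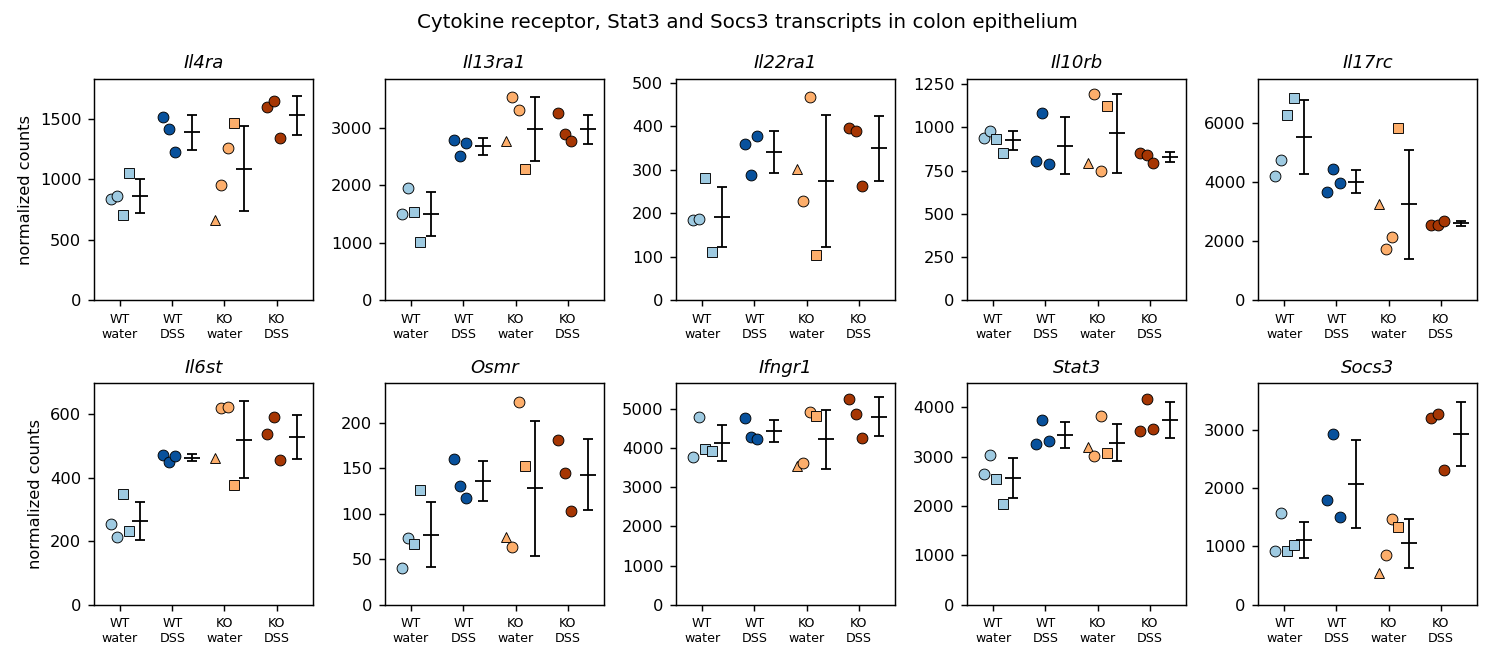
Normalized counts of the 10 genes in every library by group. Each point is 1 library, the bar beside it is the group mean with its SD, the triangle is the library labelled KO water replicate 1, and squares are the 3 libraries with over 20% mitochondrial counts. For Il17rc the 3 squares are the highest points, from 5835 to 6855, and the KO DSS libraries lie below all WT libraries; for Il13ra1 and Il6st the WT water libraries lie below all others.

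On water, the Il17rc difference had the same sign but the KO libraries scattered. WT stood at 4188, 4737, 6271 and 6855 normalized counts, and KO at 3262, 1724, 2139 and 5835. The log2 fold change was -0.77 ± 0.33 and was not called (adjusted p = 0.216 in edgeR, 0.116 in DESeq2). Without the library labelled KO water replicate 1 it was -0.77 ± 0.38, also not called (adjusted p = 0.302 in edgeR, 0.182 in DESeq2). The 3 highest values, 6271, 6855 and 5835, belonged to the 3 libraries with over 20% mitochondrial counts, in both genotypes, and without those 3 libraries the log2 fold change was -0.90 ± 0.25 (adjusted p = 0.105 in edgeR, 0.0156 in DESeq2). That fit set WT water replicates 1 and 2 against KO water replicates 1 to 3, with no name prefix in common, so genotype and prefix cannot be told apart there. Within libraries of a shared name prefix the log2 fold change was -1.33 (2 KO against 1 WT) and -0.23 (1 against 1). The first set WT water replicate 3 (30.6% mitochondrial counts) against KO water replicates 1 and 2 (5.02% and 8.10%). Of these, KO water replicate 1 had Smad4 at the WT level. The second set KO water replicate 4 (21.4%) against WT water replicate 4 (32.8%), both rich in mitochondrial counts. The mitochondrial share's part in the Il17rc level was not tested further.

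The partner chain Il17ra, shared by all interleukin-17 receptors, was lower in mean after DSS in KO (332, 454 and 416 in WT, 313, 361 and 329 in KO), but the groups overlapped and it was not called (log2 fold change -0.26 ± 0.14). Il17re, the chain that with Il17ra receives interleukin-17C, was named after its values were seen. It was at 424, 558 and 542 in WT and 299, 402 and 364 in KO after DSS, and at 563 to 637 in WT and 336 to 552 in KO on water. Its groups did not overlap in either contrast, as held downwards for 11.7% of all genes after DSS and 5.31% on water. It was not called in either (log2 fold change -0.51 ± 0.15 and -0.48 ± 0.18, adjusted p = 0.164 and 0.181 in edgeR).

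Il13ra1 and Il6st separated the libraries labelled KO from those labelled WT on water. Il13ra1, the chain that lets Il4ra receive interleukin-13, was at 1493, 1946, 1537 and 1006 in WT and at 2777, 3534, 3318 and 2286 in KO. Il6st, the gp130 chain, was at 255, 213, 349 and 233 in WT and at 461, 618, 623 and 376 in KO. For both genes every KO library was above every WT library, which held upwards for 5.34% of the 14568 genes tested. These KO libraries include the one labelled KO water replicate 1, with Smad4 at the WT level, at 2777 for Il13ra1 and 461 for Il6st. The fold changes were 1.99 and 1.98 (log2 0.99 ± 0.21 and 0.99 ± 0.23). Neither was called by edgeR on the 8 libraries (adjusted p = 0.149 and 0.151), which called 0 of the 10 genes and 1 gene in all (0.00686%), while 3 of the 10 were higher (11.1% of all genes) and 1 lower (9.88%) at an unadjusted p under 0.05. DESeq2 called these 2 higher (adjusted p = 0.00427 and 0.00975), as it did 2.72% of its 12997 genes. With the 14 libraries in 1 edgeR model both passed (adjusted p = 0.0214 for each). Without the library labelled KO water replicate 1 the log2 fold changes were 1.03 ± 0.24 and 1.04 ± 0.26, not called by edgeR and called by DESeq2 (adjusted p = 0.00767 and 0.0162). Without the 3 libraries rich in mitochondrial counts they were 0.91 and 1.29, and Il6st then passed edgeR (adjusted p = 0.0465). In that fit genotype and name prefix cannot be told apart, as for Il17rc. With the prefix as a factor edgeR gave 1.10 ± 0.19 for Il13ra1 (adjusted p = 0.0358) and 0.65 ± 0.22 for Il6st (adjusted p = 0.134). Within the same libraries of a shared name prefix as for Il17rc the log2 fold changes were 1.04 and 1.18 for Il13ra1 and 0.63 and 0.69 for Il6st. Of 10 fibroblast and muscle markers tested in the same contrast, 7 had a log2 fold change above 0 (49.4% of all genes). At an unadjusted p under 0.05, 3 were higher (11.1% of all genes) and 0 lower (9.88%). EdgeR called 0 of them and DESeq2 called 2 of 6 higher (2.72% of all genes). Their sums overlapped, at 321 to 514 in WT and 425 to 1077 in KO, with the highest in KO water replicate 4, 1 of the 3 mitochondria-rich libraries left out above. Single markers, named after their values were seen, differed. Col1a2 was at 7, 3, 3 and 2 raw counts in WT and 48, 14, 26 and 96 in KO. Dcn was at 12, 11, 8 and 5 and at 97, 18, 89 and 216. Vim overlapped, at 225, 186, 65 and 63 and at 228, 153, 212 and 209. The part of these markers in the Il13ra1 and Il6st values was not tested.

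Stat3 was at 2644, 3031, 2544 and 2049 in WT on water and at 3206, 3014, 3835 and 3079 in KO, where 1 WT library reached into the KO range, and was not called (log2 fold change 0.35 ± 0.16, adjusted p = 0.232). Without the library labelled KO water replicate 1 Stat3 was at 0.37 ± 0.18 (adjusted p = 0.306 in edgeR). Socs3 was nearly level between the genotypes on water (930, 1563, 914 and 1025 in WT, 546, 852, 1462 and 1339 in KO; -0.08 ± 0.29). Its sign turned to 0.14 without the library labelled KO water replicate 1. Osmr ranged from 63.2 to 222 and Il22ra1 from 104 to 467 within KO on water, the widest relative spreads among the 10 genes together with Il17rc, and neither was called. Their log2 fold changes were 0.76 and 0.53, and 0.95 and 0.48 without KO water replicate 1. Ifngr1 and Il10rb differed by 0.04 ± 0.17 and 0.06 ± 0.18, and by 0.11 and 0.15 without KO water replicate 1. Il4ra was not called either (0.34 ± 0.23, adjusted p = 0.426), with 0.51 ± 0.20 without that library and 0.19 ± 0.25 without the 3 libraries rich in mitochondrial counts.

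**Figure D3:**
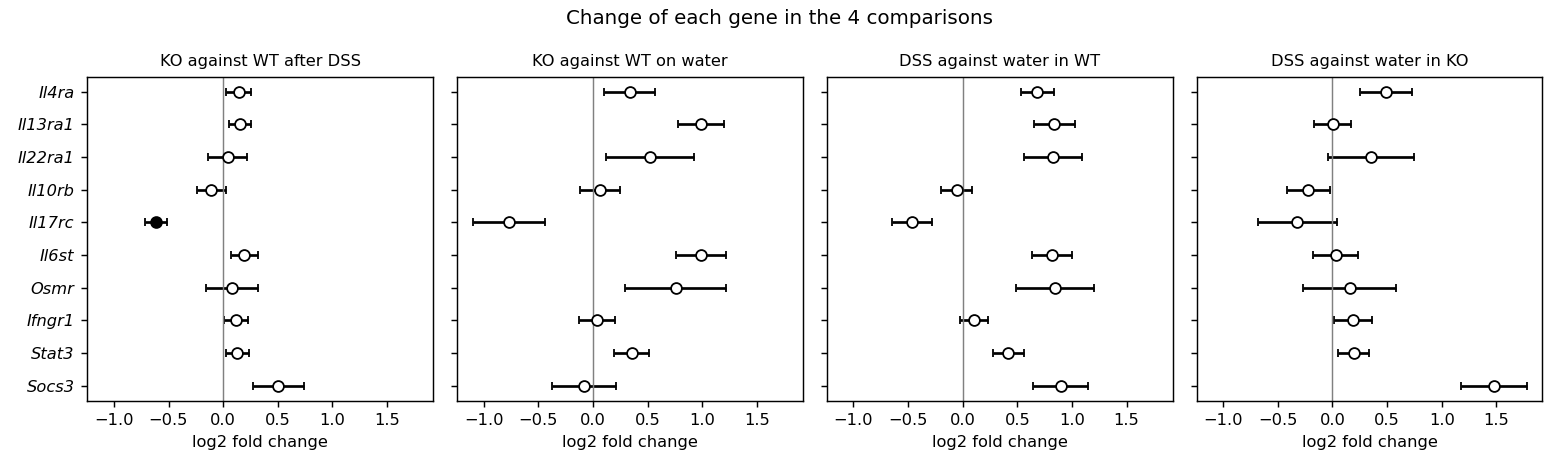
Log2 fold change of each gene in 4 comparisons. Points are edgeR estimates, bars are 1 standard error, and the filled point is the single value past the adjusted p threshold of 0.05, Il17rc in KO against WT after DSS at -0.62. Il13ra1 and Il6st sit near 1 for KO against WT on water, above 0.8 for DSS against water in WT, and near 0 for DSS against water in KO.

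In WT, most of the 10 genes stood at higher levels after DSS, although edgeR called none of them. It called 0 of the 14407 genes tested (0.00%), and 3612 of them had an unadjusted p under 0.05. At that unadjusted level 7 of the 10 genes were higher (11.8% of all genes) and 1, Il17rc, lower (13.3%), and 5 had DSS libraries wholly above the water libraries (13.2% of all genes). DESeq2 called 5 of them higher (5.84% of its 13520 genes): Il4ra, Il13ra1, Il22ra1, Il6st and Socs3. The median log2 fold change of the 10 genes was 0.75, against -0.02 over all genes.

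Both chains of the interleukin-4 and interleukin-13 receptor were among them. Il4ra was at 837, 858, 703 and 1049 on water and at 1517, 1413 and 1229 after DSS, 1.61-fold (log2 0.68 ± 0.15, adjusted p = 0.0852 in edgeR, 0.00321 in DESeq2). Il13ra1 went from the water values above to 2784, 2514 and 2742 (log2 0.84 ± 0.19, adjusted p = 0.0852 and 0.00332). The DSS libraries of both genes lay above all water libraries. Without the 3 libraries rich in mitochondrial counts the values were 0.71 and 0.64, and DESeq2 still called both.

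Of the gp130 and interleukin-22 receptors, Il6st was at 471, 449 and 469 after DSS (log2 0.82 ± 0.19, adjusted p = 0.0852 in edgeR, 0.00323 in DESeq2). Il22ra1, the chain that limits interleukin-22 reception to epithelial and other non-blood cells, was at 186, 187, 280 and 111 on water and at 359, 287 and 378 after DSS (log2 0.83 ± 0.27, adjusted p = 0.113 and 0.0336). Its partner Il10rb, shared by several receptors, was at 938, 978, 932 and 850 on water and at 808, 1083 and 791 after DSS, with no difference beyond the spread (-0.05 ± 0.14). Il10rb shares 569 exon bases with the neighbouring Ifnar2 gene on the same strand, where a read can belong to either gene. Osmr, the scarcest of the 10 genes, was at 40.7, 73.7, 66.8 and 126 on water and at 160, 130 and 117 after DSS, which overlapped (0.85 ± 0.36, adjusted p = 0.179).

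Stat3 was higher in all 3 DSS libraries than in any WT water library, by 1.34-fold, and was called by neither tool (log2 0.42 ± 0.14, adjusted p = 0.123 in edgeR, 0.0638 in DESeq2), with 0.28 ± 0.11 without the 3 libraries rich in mitochondrial counts. Its exons overlap those of Stat5a on the opposite strand by 72 bases, and the strand setting of the counting is not given. Socs3 was at 1791, 2917 and 1495 after DSS against 914 to 1563 on water, where water replicate 2 overlapped (log2 0.90 ± 0.25, adjusted p = 0.0968 in edgeR, 0.0147 in DESeq2). Without WT DSS replicate 2, the library with the highest Socs3, the value was 0.56 ± 0.23, and without the 3 libraries rich in mitochondrial counts DESeq2 no longer called it (0.74, adjusted p = 0.374). Leaving out WT water replicate 2 instead gave 1.115 ± 0.23, and edgeR then called Socs3 (adjusted p = 0.0490) among 455 genes in all. Ifngr1 was at 3778 to 4797 on water and 4242 to 4762 after DSS (0.10 ± 0.13). Il17rc was lower by -0.46 ± 0.18 after DSS, not called, and by -0.15 ± 0.12 without the 3 libraries rich in mitochondrial counts, of which 2 were WT water libraries.

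Within KO, Socs3 was the gene of the 10 that set DSS apart from water. Its level was 546, 852, 1462 and 1339 on water and 3197, 3273 and 2301 after DSS, so that every DSS library was above every water library, as for 4.57% of the 14409 genes tested. The log2 fold change was 1.48 ± 0.30, or 2.79-fold. EdgeR called 0 of the 10 genes and 1 gene in all (0.00694%), with an adjusted p of 0.283 for Socs3, while DESeq2 called Socs3 (adjusted p = 0.000898) and 0.268% of its 15688 genes higher. Socs3 was also the single one of the 10 at an unadjusted p under 0.05 (3.05% of all genes upwards). Without the library labelled KO water replicate 1, which held the lowest Socs3 value, the log2 fold change was 1.26 ± 0.24, called by DESeq2 (adjusted p = 0.000608) and not by edgeR (0.417).

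The 2 genes that separated the labelled genotypes on water had values near 0 for DSS within KO. Il13ra1 was at 3253, 2898 and 2771 in KO after DSS, a log2 fold change of 0.00 ± 0.17 from KO water, and Il6st was at 538, 592 and 456 (0.03 ± 0.21). In the model of all 14 libraries their DSS responses differed between KO and WT by -0.84 ± 0.27 and -0.80 ± 0.29, at unadjusted p of 0.00636 and 0.0136 (4.03% of all genes downwards) but adjusted p of 0.643 each by edgeR. EdgeR called 1 of 15127 genes for this difference (0.00661%), none of the 10, and DESeq2 called 4 genes (0.0169%) and none of the 10. Without the library labelled KO water replicate 1 the differences were -0.87 ± 0.28 and -0.85 ± 0.30 (adjusted p = 0.5745 each by edgeR). Without the 3 libraries rich in mitochondrial counts DESeq2 called both (-0.75, adjusted p = 0.0349, and -1.09, adjusted p = 0.00508) and edgeR neither (adjusted p = 0.144 and 0.0874). The WT and KO water libraries left in that fit share no name prefix. The KO water libraries enter the contrast on water, that of DSS in KO and the difference of responses. The WT water libraries enter the contrast on water, that of DSS in WT and the difference, so these contrasts are not independent. The Socs3 responses of 1.48 in KO and 0.90 in WT had a difference of 0.58 ± 0.43 that was not called (adjusted p = 0.724), and of 0.37 ± 0.38 without the library labelled KO water replicate 1.

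Il4ra was at 663, 956, 1260 and 1466 in KO on water and at 1595, 1645 and 1341 after DSS, with overlap (0.49 ± 0.24, adjusted p = 0.748). Without the library labelled KO water replicate 1, which held its lowest value, it was 0.31 ± 0.19, also not called. Stat3 was at 3513, 4166 and 3571 in KO after DSS, inside which the highest KO water library fell (0.19 ± 0.14). Ifngr1, Il10rb, Osmr and Il22ra1 had log2 fold changes from -0.22 to 0.35 in KO, each with overlapping groups. Without the same library Ifngr1 was at 0.11 in place of 0.19 and Osmr at -0.032 in place of 0.16. Il17rc was at -0.32 ± 0.36, which turned to 0.14 ± 0.21 without KO water replicate 4, the KO library rich in mitochondrial counts.

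The kinases and other STATs that these receptors use were described next. Jak1, which serves all the JAK-bound receptors here, was at 1023 to 1718 in WT on water and 1976 to 2354 after DSS, and Jak2 at 1006 to 1216 and 1441 to 1608. Both had non-overlapping groups in WT (13.2% of all genes upwards) and were called by DESeq2 (adjusted p = 0.0131 and 0.012) and not by edgeR. In all, DESeq2 called 3 of the 9 JAK and STAT genes tested higher (5.84% of all genes), and 8 of the 9 had positive values (48.5% of all genes). Stat6, the interleukin-4 and interleukin-13 effector, kept between 1533 and 2091 in all 14 libraries. Stat2, which acts in type I interferon signalling, was lower in KO after DSS (1816, 1805 and 1840 in WT, 1230, 1381 and 1354 in KO). Its log2 fold change was -0.46 ± 0.09, with an adjusted p of 0.0482 in edgeR, close to the threshold of 0.05. It was the single JAK or STAT gene called in that contrast (0.801% of all genes). Over all genes, the calls went from 114 to between 26 and 97 with 1 library left out, and to 2 with all 14 libraries in 1 model. Ifngr2, the signalling partner of Ifngr1, was at 2319, 2408 and 2620 in WT and 1828, 2182 and 2126 in KO after DSS. It had no overlap (11.7% of all genes downwards) and no call (-0.26 ± 0.10, adjusted p = 0.264).

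**Figure D4:**
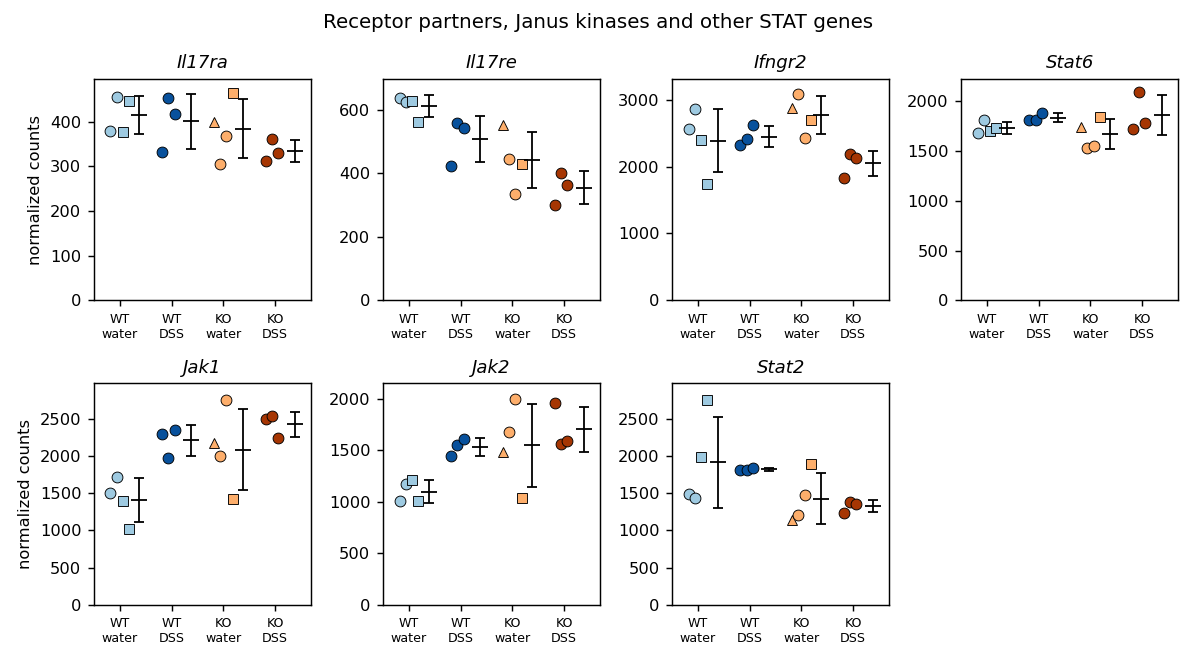
Normalized counts of receptor partners, Janus kinases and STAT genes in every library by group. Points, bars, triangle and squares are as in the plot of the 10 genes. Stat2 lies at 1805 to 1840 in WT and 1230 to 1381 in KO after DSS, and Jak1 and Jak2 in WT lie higher after DSS than on water.

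Some partner chains were nearly absent. Il6ra, the interleukin-6 chain that pairs with gp130, was at 3.58 to 55.5 normalized counts per library, Lifr, the gp130 partner for leukemia inhibitory factor, at 0 to 52.8 and Il10ra at a mean of 5.67 in WT on water, and the decoy receptor Il13ra2 was at 0 in all 14 libraries. Not every gp130 partner was scarce: Il11ra1, the interleukin-11 chain, was at 232 to 863 normalized counts per library. Of 22 partner genes, 17 were tested after DSS, and edgeR called 0 of them between KO and WT (4 at an unadjusted p under 0.05, against 15.7% of all genes, and 0 by DESeq2). Of the 20 ligand genes only 3 to 5 passed the filter in any comparison, and none was called by either tool.

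Genes known to respond to these receptors gave a mixed picture after DSS. Of 31 STAT3 targets tested, edgeR called 2 higher in KO against WT (0.358% of all genes), S100a8 and S100a9. S100a8 was at 9.20, 31.1 and 31.2 normalized counts in WT and at 288, 237 and 142 in KO. The log2 fold changes were 3.21 ± 0.42 (adjusted p = 0.0113 in edgeR) and 3.06 ± 0.55 (adjusted p = 0.0428). The pair encodes calprotectin, which neutrophils also make in quantity, and the 18 immune cell markers summed to 1284 to 2210 in WT and 1786 to 1949 in KO after DSS. Most of that sum was 1 gene, Ly6g, at 849, 1603 and 1253 raw counts in WT and 1217, 1356 and 1154 in KO. Csf3r, also on the list, was at 0, 1 and 7 and at 1, 5 and 3. The sum therefore does not show whether neutrophil content was alike. Fibroblast and muscle markers did not overlap, at 367 to 505 and 594 to 685, and 3 of 9 tested were called higher (0.358% of all genes). Their part in these differences was not tested. The other 29 STAT3 targets were not called, and the median of the list was 0.12. At an unadjusted p under 0.05, 2 of the list were higher (7.25% of all genes) and 2 lower (8.43%). Of 9 interleukin-4 and interleukin-13 targets, edgeR called 1 lower (0.442% of all genes), Fcgbp, a goblet cell mucus protein. It was at 52250, 57963 and 66143 in WT and 24634, 28417 and 26007 in KO (-1.15 ± 0.12, adjusted p = 0.00459). At an unadjusted p under 0.05, 2 of these 9 targets were higher and 2 lower. Of 14 interleukin-17 targets and signalling genes 0 were called by edgeR and 1 by DESeq2 (3.42% of all genes), with a median of 0.00 and 3 at an unadjusted p under 0.05 (15.7% of all genes). All 22 interferon gamma targets had a log2 fold change below 0, with a median of -0.30, and 10 were lower at an unadjusted p under 0.05 (8.43% of all genes), but edgeR called 0 and DESeq2 2 lower (2.10%). The 15 feedback inhibitors other than Socs3 had a median of 0.06, with 0 called by either tool and 2 at an unadjusted p under 0.05 (15.7% of all genes).

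For DSS against water in WT, edgeR called no gene of these lists, while 13, 7, 11 and 0 genes of the STAT3, interleukin-17, interferon gamma, and interleukin-4 and interleukin-13 lists were higher at an unadjusted p under 0.05 (11.8% of all genes). DESeq2 called 9 of 30 STAT3 targets higher, 4 of 14 interleukin-17 targets, 6 of 22 interferon gamma targets and 0 of 9 interleukin-4 and interleukin-13 targets, against 5.84% of all genes, with list medians of 0.43, 0.50, 0.47 and 0.05. Lcn2, an iron-withholding antimicrobial protein on both the STAT3 and the interleukin-17 lists, and Reg3g, an antibacterial lectin, were named after their values were seen, and had log2 fold changes of 1.57 ± 0.24 and 1.74 ± 0.38 (adjusted p = 0.0606 and 0.0852 in edgeR, 1.08e-06 and 0.000148 in DESeq2). In KO the same lists had medians of 0.38, 0.14, 0.34 and 0.15, with 9, 2, 5 and 0 genes higher at an unadjusted p under 0.05 (3.05% of all genes) and 0, 0, 1 and 0 called higher by DESeq2 (0.268%). The difference between the KO and WT responses was called for no gene of these 4 lists by either tool. On water, between KO and WT, edgeR called none of them (3, 4, 0 and 1 higher, against 11.1% of all genes, and 1, 0, 2 and 1 lower, against 9.88%, at an unadjusted p under 0.05), the medians were 0.17, 0.33, -0.20 and -0.33, and DESeq2 called 2 interleukin-17 targets higher (2.72% of all genes) and 1 interferon gamma target lower (2.65%).

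Genes whose levels across the 14 libraries most resembled Stat3, by Pearson's r of log2 counts scaled to library size over 11579 genes, were Gyk and Rbm24 (0.95 each), Gm16907, Acbd3 and Ptpn1 (0.94 each). With each group's mean removed they were Rbm24, Midn, Ptpn1, Zc3h12a and Tbc1d30 (0.93 to 0.95). For Socs3 the closest were Tac1 (0.90), Proz, Daglb, Cpne2 and Tifa (0.88 each), and with group means removed Cd38 (0.91), Stom (0.90), Tat (0.88), Ttc39a (0.87) and Trim40 (0.83). The 14 points share libraries, groups and depth, and the values describe likeness in these libraries only.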

How the data were processed

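Poly(A) RNA of 14 libraries was sequenced as paired reads; the authors used HISAT2 on mm9 and featureCounts, and the deposited values are raw counts (strand setting not given in the sources used here). Symbols and positions came from GENCODE M1, which has 37310 of the 37680 rows. Groups follow the labels. EdgeR 4.0.16 quasi-likelihood tests (R 4.3.3, TMM, a minimum of 10 counts in 3 or more libraries of the fit, Benjamini-Hochberg threshold 0.05) were fitted to the 2 groups compared, and to all 14 libraries for the difference of responses. Normalized counts are counts divided by the TMM-scaled library size, times the mean of these sizes. Depth was 12882827 to 26087231 counts, and replicates differed beyond sampling noise. Replicate numbers did not pair libraries (correlations of same-numbered deviations from -0.08 to 0.35). DESeq2 1.42.0, other models, scalings, filters and left-out libraries were alternatives, and the test was tested on simulated data. The genes and lists (receptor partners, ligands, JAK and STAT, feedback inhibitors, STAT3, interleukin-4 and interleukin-13, interleukin-17 and interferon gamma targets, cell type markers) were chosen with earlier results of these data known. Named are the 10 genes, Smad4, partner chains and kinases, up to 4 called genes per list with a mean of at least 50 normalized counts, and the 5 genes most like Stat3 and Socs3, and 1 gene that the rule names is not reported here. Endothelial markers summed to 89.0 to 220 normalized counts per library and squamous markers to 7.16 to 77.1.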

Additional observations from a re-analysis of the deposited data

Results flagged for a closer look

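Smad4 in the library labelled KO water replicate 1 was 3164.4 normalized counts, against 702 to 936 in the other 3 KO water libraries and 2372 to 3188 in the WT water libraries. It stood apart from its group by Dixon's criterion for 4 samples, the only such case in 22 groups tested, where chance gives about 1 in 20. None of the 10 receptor and STAT3 pathway genes had a library that met the criterion in a water group, and groups of 3 were not tested.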

How the results depend on the processing

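Counts are given for KO against WT after DSS, KO against WT on water, DSS against water in WT, DSS against water in KO and the difference of the DSS responses, in this order, where edgeR on the groups compared called 1, 0, 0, 0 and 0 of the 10 genes and 114, 1, 0, 1 and 1 of all genes. DESeq2 called 1, 2, 5, 1 and 0 of the 10 and 496, 697, 1703, 71 and 4 of all genes. With all 14 libraries in 1 edgeR model the first 4 counts were 0, 2, 0 and 0, and 2, 1276, 0 and 10. With 13 libraries (without KO water replicate 1) they were 0, 2, 0, 0 and 0, and 8, 1154, 0, 5 and 1. Without a filter on low counts they were 1, 1, 4, 1 and 0, and 345, 55, 457, 19 and 2. Median-of-ratios size factors and the removal of mitochondrial genes changed no call of the 10 genes. With the name prefix as a factor, which could not be fitted for DSS in KO, 0, 1, 0 and 0 of the 10 and 45, 289, 2 and 1 of all genes were called. With the replicate block the counts were 0, 2, 0, 0 and 0, and 52, 460, 27, 13 and 1; the numbers do not mark pairs (only 0 of 6, 2 of 8, 1 of 6 and 1 of 6 libraries deviated most like the library of their own number in the first 4 contrasts). Chosen after seeing the data, DESeq2 without KO water replicate 1 called 2, 1 and 0 of the 10 and 590, 67 and 20 of all genes in the contrasts on water, of DSS in KO and of the difference. Without the 3 libraries rich in mitochondrial counts, also added later, edgeR called 1, 0, 0 and 0 of the 10 and 106, 1, 1 and 30 of all genes in the last 4 contrasts, and DESeq2 3, 5, 1 and 2 and 1419, 1116, 238 and 354. Leaving out each library in turn gave 0 to 1, 0 to 3, 0 to 2, 0 and 0 of the 10 and 26 to 97, 1 to 1816, 0 to 455, 1 to 3 and 1 to 6 of all genes. The 1816 and the 3 (Il13ra1, Il6st and Il17rc) came without KO water replicate 4. The 455 and the 2 (Il13ra1 and Socs3) came without WT water replicate 2. The cause of these shifts was not tested.

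Signs turned only for log2 fold changes that no fit called. After DSS between genotypes, Osmr was -0.018 with the prefix, and with a library left out Il22ra1 ranged from -0.066 to 0.21, Il10rb from -0.19 to 0.058 and Osmr from -0.12 to 0.27. On water, Il22ra1 was -0.090 with the prefix, Il10rb -0.062 and -0.070 and Ifngr1 -0.085 and -0.090 without the mitochondria-rich libraries (edgeR, DESeq2), and Socs3 0.13 with 13 libraries and 0.14 by DESeq2 without KO water replicate 1. Their left-out ranges were -0.060 to 0.17 (Il10rb), -0.044 to 0.13 (Ifngr1) and -0.28 to 0.14 (Socs3), and for DSS in WT -0.21 to 0.029 (Il10rb). For DSS in KO, Il13ra1 was -0.0022 with 14 libraries, -0.035 with 13, -0.031 by DESeq2 without KO water replicate 1, -0.097 with the block, and -0.11 and -0.097 without the mitochondria-rich libraries. Il6st was -0.028, -0.024, -0.088, -0.097 and -0.089 in the same fits other than the 14-library one, Osmr -0.036 with 13 libraries and -0.030 by DESeq2 without KO water replicate 1, and Il17rc 0.19 with the block and 0.14 and 0.15 without the mitochondria-rich libraries. Their left-out ranges were -0.11 to 0.095 (Il13ra1), -0.097 to 0.12 (Il6st), -0.063 to 0.55 (Osmr) and -0.53 to 0.14 (Il17rc). For the difference, Il22ra1 was 0.20 with the prefix, Il17rc ranged from -0.064 to 0.58 and Ifngr1 from -0.0075 to 0.16. Scaling by all counts moved 5 of 40 group means by more than 1 SD. At 41 to 270 counts per library, Osmr is the gene for which counting error limits the fold change most.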
